A study of Mus musculus with 19 samples.

Results

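The long noncoding RNAs described here are the 116 most abundant in the medial prefrontal cortex of the mice studied. They were chosen as the rows annotated as lncRNA whose mean CPM (reads counted on a gene per 1000000 counted reads in the library) over 19 libraries was at least 10, with 1700016P03Rik left out. The deposited table held 57010 genes, of which 11599 were lncRNA rows, and 8095 of these had at least 1 count. All 116 members were detected in each of the 19 libraries, and all passed the filter on low counts that left 17757 genes, 1825 of them lncRNA, for testing. The choice used only the mean over all libraries, so the levels below are a description. The treatment groups and the markers of other tissue were not used in it. A member that is high in only some libraries can still pass through those. Just inside the threshold were Gm14204 at 10.3 and AW011738 at 10.4 CPM, and just outside were Snhg6 at 9.90 and 4933421O10Rik at 9.76 CPM.

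Long noncoding RNAs are transcripts without a protein product that act in several ways. Some build nuclear bodies, as Neat1 does for paraspeckles. Some act on the gene next to them or mark imprinted chromosome domains, and others are the precursors from which microRNAs or small nucleolar RNAs are cut. Many are more restricted to a cell type or brain region than coding transcripts are, so their level in a piece of tissue follows the cells in that piece.

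Wild-type mice were sampled in 4 groups, and poly(A) RNA of the medial prefrontal cortex was sequenced in bulk. Control mice (n = 4) were given saline by gavage over 8 days and saline intraperitoneally over 5 days. The LPS group (n = 5) had saline gavage and intraperitoneal lipopolysaccharide, a bacterial cell wall component that provokes inflammation, at 1 mg/kg on 5 days. The sedanolide group (n = 5) had the celery phthalide sedanolide at 20 mg/kg by gavage on 8 days with saline injections. The co-treated group (n = 5) had both agents, with gavage begun 3 days ahead of LPS. Library totals ran from 19083707 to 24318856 counts. Nothing in the labels says that the samples of a group are separate animals, so p-values measure the spread between these samples only.

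Libraries differed in olfactory bulb RNA. In 7 libraries (control 1 and 5, LPS 2, 3 and 4, sedanolide 3 and 4) the bulb gene Cdhr1 stood at 57.7 to 445 CPM, and in the other 12 it stood at 2.29 to 9.92 CPM. These are called bulb-rich and bulb-poor below, and all 5 co-treated libraries were bulb-poor. The summed level of all 7 bulb markers was 105 to 1016 CPM in bulb-rich and 3.61 to 12.5 CPM in bulb-poor libraries, and no marker was at 0 throughout. The 6 excitatory neuron markers, which are not specific to cortex, summed to 1564 to 2134 CPM in bulb-poor and 959 to 2040 CPM in bulb-rich libraries. The 6 striatal markers, at 61.0 to 261 CPM, were also present in every library. In bulk tissue, fewer cells of a type and less RNA per cell cannot be told apart.

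The members made up a small and uneven share of the RNA. They took 0.693% ± 0.031 of counts in control libraries (SD, n = 4), 0.623% ± 0.030 under LPS (SD, n = 5), 0.629% ± 0.026 under sedanolide (SD, n = 5) and 0.613% ± 0.023 in co-treated mice (SD, n = 5). Norad alone averaged 1281 CPM. It was followed by the imprinted Meg3 at 501, Oip5os1 at 471, Rian at 451 and Malat1 at 303 CPM. Per length the order changed. Exon lengths from GENCODE vM21 were found for 99 of 116 members (85.3%). On this scale Norad stayed first at 261 CPM per kilobase, followed by Oip5os1 at 56.8, Peg13 at 44.3 and Malat1 at 43.4. Next came 2410006H16Rik, with 462 exonic bases, at 34.7 and Meg3 at 27.7 CPM per kilobase. The abundant ENSMUSG00000121141 and ENSMUSG00000121179 had no length and could not be ranked. Neat1, with 20771 exonic bases, was at 1.09 CPM per kilobase. All of these are levels in poly(A) libraries, and how fully each RNA was captured was not measured.

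Norad, a cytoplasmic RNA that binds Pumilio proteins, stood at 916, 1400, 1480 and 1140 CPM in control replicates 1, 2, 4 and 5, and at 1280, 831, 1320, 1200 and 1370 CPM in LPS replicates 1 to 5. It was at 1600, 1610, 1040, 1250 and 1420 CPM under sedanolide and at 1390, 1440, 1330, 1330 and 1160 CPM in co-treated mice. The groups overlapped fully, and the lowest values were those of bulb-rich libraries. Its log2 change against control was -0.04 ± 0.16 (SE) for LPS, 0.17 ± 0.16 for sedanolide and 0.11 ± 0.16 for co-treatment, none of which passed the test (edgeR adjusted p = 0.908, 0.542 and 0.703).

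**Figure D1:**
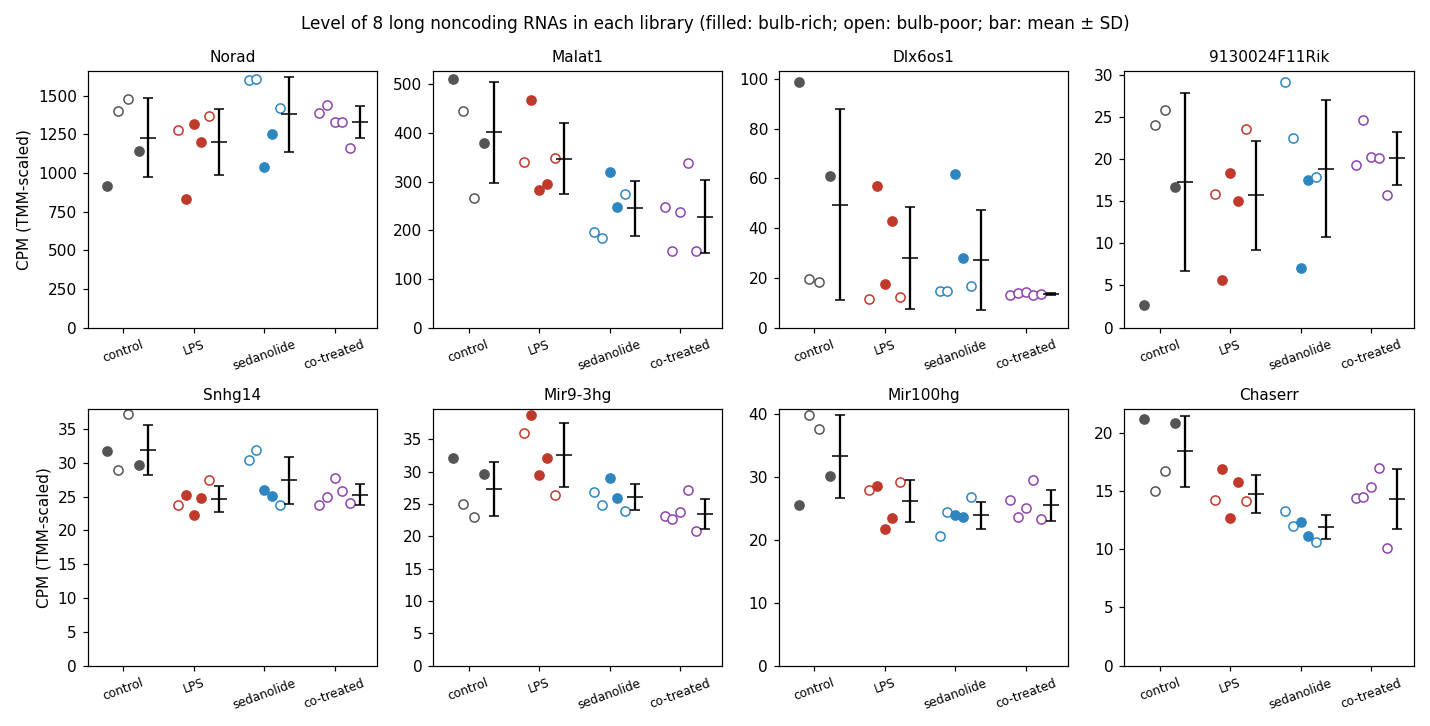
Level of 8 members in every library, in TMM-scaled CPM on linear axes that start at 0, by treatment group. Filled points are bulb-rich and open points bulb-poor libraries, and bars give the mean ± SD of each group. Dlx6os1 reaches 98.7 CPM in a bulb-rich control library and lies between 13 and 14.1 CPM in the 5 co-treated libraries, while Snhg14 is lower in every LPS library than in any control library.

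LPS moved few of these RNAs, and more of them down than up. Of the 116 members, 7 (6.03%) were called at an adjusted p below 0.05 in edgeR's quasi-likelihood test, against 10.9% of all genes tested. There were 2 higher (8.47% of all genes) and 5 lower (2.44% of all genes). The median log2 change of the members was -0.14 against -0.0034 for all genes, and 89 members (76.7%) lay below 0 against 50.6% of all genes. The groups did not overlap for 5 members that were lower (2.8% of all genes) and for 0 that were higher (7.93% of all genes). No member passed a log2 change of 1 in either direction, while 5.02% of all genes did.

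The 5 members that fell were 9330151L19Rik, Snhg14, ENSMUSG00000120390, Gm45495 and Gm16536. Uncharacterised 9330151L19Rik (chr12:69243985-69246641, + strand, on the build of the deposited table, which is not named) stood at 13.9, 14.2, 18.7 and 15.6 CPM in control mice and at 10.2, 8.91, 10.1, 11.3 and 13.6 CPM under LPS. Every LPS library lay below every control library, and the log2 change was -0.52 ± 0.12 (SE, edgeR adjusted p = 0.00828). This call held without any single library, at an adjusted p of at most 0.047 (edgeR). The calls of ENSMUSG00000120390, Gm45495 and Gm16536 were lost in 6, 5 and 13 of the 19 fits that each leave out 1 library, at an edgeR adjusted p of up to 0.178, 0.154 and 0.183.

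Snhg14 is the long transcript of the Prader-Willi and Angelman region, from which many small nucleolar RNAs are cut and which runs antisense to the ubiquitin ligase gene Ube3a. It stood at 31.8, 28.9, 37.2 and 29.6 CPM in control mice and at 23.7, 25.2, 22.3, 24.8 and 27.4 CPM under LPS, again without overlap. The log2 change was -0.37 ± 0.10 (SE, edgeR adjusted p = 0.0155), and without control replicate 4 it missed the threshold (adjusted p = 0.081). In the table Snhg14 covers chr7:58957672-59625507 on the - strand and hosts 208 of the 243 small nucleolar RNA genes that lie within members. Ube3a, on the opposite strand, had a log2 change of -0.24 (edgeR adjusted p = 0.276). Whether the counting used strand is not given, so it cannot be said which of these overlapping genes a read came from.

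The rises were those of Gm35040 and Brip1os. Gm35040 stood at 33.3, 29.3, 25.4 and 25.3 CPM in control mice and at 41.3, 38.8, 35.9, 31.9 and 34.4 CPM under LPS, a log2 change of 0.36 ± 0.10 (SE, edgeR adjusted p = 0.0246). Only LPS replicate 4 fell within the control range. Brip1os, which overlaps the coding genes Ints2 and Med13 on the opposite strand, rose by 0.33 ± 0.10 log2 (edgeR adjusted p = 0.0339). Each of these calls was lost without any 1 of 4 libraries (Gm35040) or 5 libraries (Brip1os), and over all 19 leave-one-out fits their log2 changes ranged from 0.31 to 0.45 and from 0.24 to 0.38.

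Markers of other cells moved with LPS. The 4 neutrophil markers summed to 6.31 to 9.28 CPM in control, 56.0 to 59.1 CPM in LPS and 28.5 to 36.6 CPM in co-treated libraries. The 5 microglial markers summed to 299 to 487 CPM in control, 690 to 880 CPM in LPS and 672 to 901 CPM in co-treated libraries. The 4 endothelial markers summed to 189 to 289, 344 to 466 and 276 to 340 CPM in the same groups, and the 5 red cell markers to 192 to 289, 2.40 to 179 and 28.2 to 96.0 CPM. Their part in the changes of the members was not tested.

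Sedanolide alone was followed by 9 calls among the members (7.76%), against 5.31% of all genes. There were 2 higher (3.2% of all genes) and 7 lower (2.11% of all genes). The median log2 change of the members was -0.08 against -0.01 for all genes. The groups did not overlap for 2 members that were higher (4.39% of all genes) and 8 that were lower (3.56% of all genes). Without control replicate 5 no member was called higher or lower, and 97 genes in all were called in place of 943. Without sedanolide replicate 4 there were 0 higher and 1 lower, and without sedanolide replicate 5 there were 0 higher and 2 lower. Over all fits that leave out 1 library, the genes called in all ranged from 97 to 1410.

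Chaserr, which overlaps the chromatin remodeller gene Chd2 on the same strand in the deposited table and is known to hold that gene's expression down, had the largest fall among the members called. It stood at 21.2, 15.0, 16.7 and 20.8 CPM in control mice and at 13.3, 12, 12.3, 11.1 and 10.6 CPM under sedanolide. The groups did not overlap, and the log2 change was -0.63 ± 0.13 (SE, edgeR adjusted p = 0.0152). Chd2 itself had a log2 change of 0.09 (edgeR adjusted p = 0.441), and reads in the stretch both genes share cannot be assigned with certainty to either. Without control replicate 5 the adjusted p for Chaserr was 0.0778. Without the 4 libraries low in small nucleolar RNA hosts, described below, Chaserr changed by -0.57 log2, not called (edgeR adjusted p = 0.137). That set takes out most of the sedanolide libraries.

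The other falls under sedanolide were of similar size. Ftx, a transcript of the X-inactivation centre, stood at 15.7, 18.8, 15.3 and 15.7 CPM in control and at 7.83, 10.3, 12, 12 and 11.4 CPM in sedanolide libraries, a log2 change of -0.61 ± 0.17 (edgeR adjusted p = 0.0428). ENSMUSG00000120113, which starts 317 bp from the divergent start of Fam120a, stood at 27.3 to 36.8 CPM in control and 21.6 to 23.6 CPM in sedanolide libraries (log2 -0.47 ± 0.11, edgeR adjusted p = 0.0232). C130071C03Rik, Mir100hg, 5530601H04Rik and 2410006H16Rik fell by 0.57, 0.48, 0.45 and 0.56 on the log2 scale. Gm35040 rose by 0.44 ± 0.10 log2 (adjusted p = 0.0211) and 6330403L08Rik by 0.47 ± 0.13 log2 (adjusted p = 0.0401). In the sedanolide group Gm35040 was at 36.7, 33.8, 39.0, 41.5 and 41.9 CPM, all above the control libraries. Each of these calls was lost in some of the 19 fits that leave out 1 library. Among the falls it was 13 fits for 2410006H16Rik, 10 for Ftx and 6 for 5530601H04Rik. For C130071C03Rik and Mir100hg it was 5 each, and for ENSMUSG00000120113 it was 4. Among the rises it was 8 fits for 6330403L08Rik and 3 for Gm35040.

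**Figure D2:**
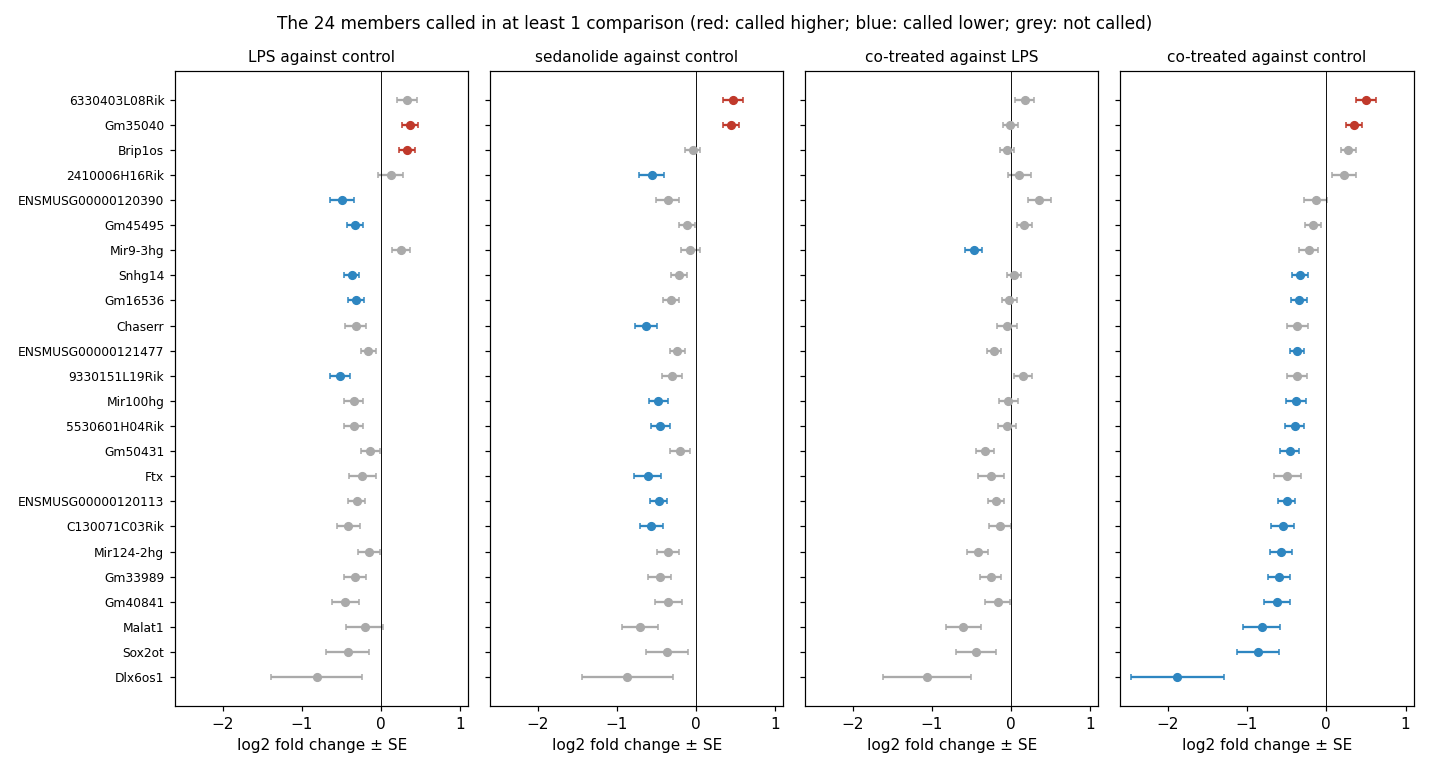
Log2 fold change ± SE of the 24 members called in at least 1 comparison, 1 panel per comparison, ordered by the change in co-treated against control mice. Red and blue points were called higher and lower at an adjusted p below 0.05, and grey points were not called. The 3 comparisons against control share the 4 control libraries, and Dlx6os1, whose control libraries run from 18.3 to 98.7 CPM, has wide error bars.

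Co-treated mice differed from control in 16 members (13.8%), against 11.1% of all genes. There were 2 higher (6.38% of all genes) and 14 lower (4.69% of all genes). The groups did not overlap for 4 members that were higher (7.91% of all genes) and 17 that were lower (4.93% of all genes). Without control replicate 1 or 5 only 3 members were called lower. Calls over all genes dropped too, to 876 without control replicate 5 in place of 1965. The median log2 change was -0.10 for members and 0.01 for all genes. The comparison joins treatment with tissue content, because 2 control libraries were bulb-rich and no co-treated library was. With a bulb index held in the model (the mean log2 CPM of Eomes, Cdhr1, Doc2g and Shisa3), 1 member was called higher (4.36% of all genes) and 7 lower (1.74% of all genes), and the 8 (6.1% of all genes) had 2 in common with the 16.

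Malat1, the abundant nuclear speckle RNA, was lower in co-treated mice. It stood at 510, 445, 267 and 379 CPM in control mice, 340, 468, 283, 295 and 349 CPM under LPS, 196, 185, 320, 248 and 275 CPM under sedanolide, and 248, 158, 237, 338 and 158 CPM in co-treated mice. Groups overlapped in each comparison. The log2 change in co-treated against control mice was -0.81 ± 0.23 (SE, edgeR adjusted p = 0.031), and under sedanolide alone it was -0.71 ± 0.23 (adjusted p = 0.0744). Once bulb content was held, the co-treated change was -0.57 and was not called (adjusted p = 0.164). Without any single library it ranged from -1.0 to -0.68, and the call was lost in 6 of these 19 fits (without control 1 or 5, or co-treated 1, 2, 3 or 5).

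Other falls in co-treated mice included Dlx6os1 (-1.88 ± 0.58 log2, edgeR adjusted p = 0.0474), Sox2ot (-0.86 ± 0.27, 0.0446), ENSMUSG00000120113 (-0.50 ± 0.11, 0.00738) and Mir124-2hg (-0.57 ± 0.14, 0.0139). ENSMUSG00000120113 stood at 21.4, 23.4, 24, 24 and 17.4 CPM in co-treated mice, all below the control range. Its call held without any single library, at an adjusted p of at most 0.0439 (edgeR), and missed the threshold with the bulb index held (log2 -0.36, adjusted p = 0.0617). Snhg14 fell by 0.33 ± 0.10 log2 (edgeR adjusted p = 0.0325) and also passed with the bulb index held (-0.41, adjusted p = 0.0179), though not without any 1 of 7 libraries. The calls of Dlx6os1 and Sox2ot were lost without any 1 of 13 and 11 libraries, and that of Mir124-2hg without control replicate 1 or 5. At a held bulb index the changes of Dlx6os1 and Sox2ot were -0.27 and -0.28 and were not called (edgeR adjusted p = 0.487 and 0.314). In the bulb-poor libraries alone they were -0.50 and -0.46 and were called (edgeR adjusted p = 0.00954 and 0.0491).

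Co-treated mice differed from LPS mice in 1 member, Mir9-3hg (0.862% of members, against 1.97% of all genes). No member was called higher by edgeR, where 0.287% of all genes were, against 1.68% called lower, and 14 members (12.1%) had an unadjusted p below 0.05 in either direction, against 19.8% of all genes. DESeq2 called 0 members higher and 3 lower, among 904 genes in all. The groups did not overlap for 2 members that were higher (3.33% of all genes) and 4 that were lower (4.6% of all genes). With the index of bulb content held, edgeR called none (0.552% of all genes). No member was called in the interaction, which asks whether the sedanolide change with LPS differed from that without it (0.586% of all genes were called). At an unadjusted p below 0.05 there were 15 members (12.9%) against 15.9% of all genes, and DESeq2 called 1, ENSMUSG00000120390 (log2 0.72, adjusted p = 0.0349). In the fit with bulb content held edgeR also called none (1.41% of all genes). That transcript starts 132 bp past the end of Ywhaz on the same strand.

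Several of the called members are hosts of microRNAs, and 17 of the 116 contain 40 microRNA genes. Mature microRNAs were not measured in these poly(A) libraries, so only the host transcripts are described. The sequences below are shown because 3 members, C130071C03Rik, Gm3764 and Mir9-3hg, contain separate genes for one and the same microRNA, miR-9, which is abundant in brain, and because Mir100hg and Ftx carry microRNAs of other families. They are RefSeq mature sequences, 5′ to 3′, with the seed (bases 2 to 8) in capitals. The miR-9-5p of Mir9-3 lies at chr7:79505279-79505301 on GRCm38.p6 (+ strand), miR-100-5p at chr9:41531437-41531458 (+ strand) and miR-374b-5p at chrX:103573112-103573133 (- strand).
mmu-miR-9-5p: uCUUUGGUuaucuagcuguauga
mmu-miR-9-3p: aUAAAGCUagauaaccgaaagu
mmu-miR-100-5p: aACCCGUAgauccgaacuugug
mmu-miR-125b-5p: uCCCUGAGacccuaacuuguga
mmu-let-7a-2-3p: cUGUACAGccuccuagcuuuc
mmu-miR-374b-5p: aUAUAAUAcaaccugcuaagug
mmu-miR-421-5p: cUCAUUAAauguuuguugaau

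The 3 hosts of miR-9 share the seed CUUUGGU in their product but were not called in the same comparisons. Mir9-3hg stood at 32.1, 25.0, 23.0 and 29.6 CPM in control, 36, 38.8, 29.5, 32.2 and 26.4 CPM in LPS, 26.8, 24.8, 29.0, 25.9 and 24 CPM in sedanolide and 23.1, 22.7, 23.7, 27.2 and 20.8 CPM in co-treated mice. Only LPS replicate 5 reached into the co-treated range, and the log2 change in co-treated against LPS mice was -0.47 ± 0.11 (SE, edgeR adjusted p = 0.0287). With the bulb index held it was -0.34 (adjusted p = 0.188), and the call was lost without any 1 of 7 libraries.

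Gm3764, the host of Mir9-1, stood at 45.3, 56.9, 38.3, 28.5 and 37.6 CPM under LPS and at 29.8, 25.6, 30.6, 34.3 and 25.7 CPM in co-treated mice. Its log2 change between these groups was -0.50 ± 0.14 and missed the threshold (edgeR adjusted p = 0.064). It is named after its values were seen, for the microRNA it shares with the other hosts.

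C130071C03Rik, the host of Mir9-2, stood in control mice at 119, 74.0, 76.8 and 103 CPM, in LPS mice at 56.6, 86.8, 59.0, 78.3 and 69.6 CPM, and at 56.3, 61.2, 78.6, 61.2 and 57.6 CPM under sedanolide and 67.7, 66.8, 60.1, 66.1 and 57.7 CPM in co-treated mice. It was called lower in both groups (log2 -0.57 ± 0.14, edgeR adjusted p = 0.0324, and -0.55 ± 0.14, adjusted p = 0.0213). Its 2 highest values came from the bulb-rich controls, and with the bulb index held the change was -0.41 (adjusted p = 0.0223) for sedanolide and -0.26 (adjusted p = 0.17) for co-treatment. In that fit it was also called lower under LPS (-0.38, edgeR adjusted p = 0.01).

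Mir100hg, a long host transcript at chr9:41238373-41628290 that contains Mir100, Mir125b-1 and Mirlet7a-2, stood at 25.6, 39.8, 37.6 and 30.2 CPM in control, 27.9, 28.6, 21.8, 23.5 and 29.2 CPM in LPS, 20.7, 24.4, 23.9, 23.7 and 26.9 CPM in sedanolide and 26.3, 23.7, 25.1, 29.5 and 23.3 CPM in co-treated mice. Control replicate 1 alone overlapped the treated groups. The log2 change was -0.48 ± 0.12 under sedanolide (edgeR adjusted p = 0.0323) and -0.38 ± 0.12 in co-treated mice (adjusted p = 0.0496). The changes with bulb content held were -0.53 (adjusted p = 0.0127) and -0.50 (adjusted p = 0.016). In bulb-poor libraries alone the co-treated change was -0.61 (adjusted p = 0.0049) and the sedanolide change was -0.72 (adjusted p = 0.0509). In bulb-rich libraries alone the sedanolide change was -0.25 (edgeR adjusted p = 0.397). Leaving out single libraries lost the co-treated call in 13 of 19 fits and the sedanolide call in 5.

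Both hosts of the neuronal microRNA miR-124 among the members are listed. Mir124-2hg stood at 62.9, 36.9, 39.4 and 54.1 CPM in control and at 33.4, 35.6, 31.6, 34.2 and 27.8 CPM in co-treated mice, without overlap (edgeR adjusted p = 0.0139). Its log2 change with bulb content held was -0.29 (adjusted p = 0.122). Mir124a-1hg had a log2 change of -0.31 ± 0.15 in the same comparison and was not called (edgeR adjusted p = 0.188). Of the 6 members on the list of microRNA hosts, in the fit on groups alone, 2 fell in co-treated against control mice and 1 fell under sedanolide. In co-treated against LPS mice 1 fell, none was called under LPS and none rose. Of all genes, 4.69%, 2.11% and 1.68% fell in these 3 comparisons. The list does not hold all 17 hosts. Outside it, C130071C03Rik and Ftx were called lower under sedanolide, and C130071C03Rik and Sox2ot in co-treated against control mice. Once the bulb index was held, Mir100hg was called lower under LPS too (log2 -0.35, edgeR adjusted p = 0.0358).

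Olfactory bulb content moved with more members than any treatment did. The slope of log2 CPM on the bulb index, fitted with the treatment groups in the model, was called for 58 members (50%), against 30.9% of all genes. It was positive for 15 members (14.7% of all genes) and negative for 43 (16.3% of all genes). Leaving out single libraries gave 11 to 19 positive and 31 to 48 negative members. In the 12 bulb-poor libraries alone, edgeR called no member and no gene. In the 7 bulb-rich libraries alone it called Dlx6os1 and Gm14204, among 192 genes in all. No member had bulb-rich and bulb-poor ranges that were fully apart, and this split was not counted over all genes.

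The steepest positive slopes were those of Dlx6os1, Gm14204, Sox1ot, Sox2ot, A830036E02Rik (0.12) and Gm27032 (0.11). Dlx6os1, which overlaps the homeobox gene Dlx6 of forebrain inhibitory neurons on the opposite strand, had a slope of 0.30 ± 0.02 log2 units per unit of the index (SE, edgeR adjusted p = 4.29e-08). It ran from 17.5 to 98.7 CPM (median 56.8) in bulb-rich and from 11.4 to 19.6 CPM (median 13.9) in bulb-poor libraries. Only LPS replicate 3, the bulb-rich library with the lowest Cdhr1, fell within the bulb-poor range. Dlx6 itself had a slope of 0.29 (adjusted p = 1.58e-07).

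Gm14204 starts 44 bp from Slc32a1, the vesicular GABA transporter gene, in the opposite direction. It stood at 28.4, 7.60, 6.24 and 18.8 CPM in control, 5.88, 19.3, 7.28, 11.6 and 3.97 CPM in LPS, 6.09, 5.58, 22.7, 11.5 and 6.35 CPM in sedanolide and 5.09 to 7.04 CPM in co-treated libraries. Every bulb-poor library lay below 10 CPM, so Gm14204 passed the threshold of the choice only through bulb-rich libraries. Its slope, which is therefore a description, was 0.26 ± 0.02 (SE, edgeR adjusted p = 2.07e-07), and that of Slc32a1 was 0.19 (adjusted p = 2.82e-06). Sox1ot and Sox2ot, which overlap the progenitor genes Sox1 and Sox2 on the same strand, had slopes of 0.14 and 0.13. The slope of Sox1 was 0.17 (adjusted p = 2.68e-05), and that of Sox2 was 0.02 and not called (adjusted p = 0.262). Markers of inhibitory neurons moved with the same libraries. The 6 markers summed to 832 to 2103 CPM in bulb-rich and 731 to 939 CPM in bulb-poor libraries, and their part in these slopes was not tested.

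The negative slopes were led by 9130024F11Rik. It stood at 2.62, 24.1, 25.9 and 16.7 CPM in control replicates 1, 2, 4 and 5, and its lowest values elsewhere were 5.68 CPM in LPS replicate 2 and 7.07 CPM in sedanolide replicate 3, all bulb-rich. The slope was -0.19 ± 0.05 (SE, edgeR adjusted p = 0.00682). B230209E15Rik, Dbpht2, C030017B01Rik, Gm9866 and Gm37459 followed with slopes of -0.16, -0.15, -0.15, -0.14 and -0.12. Dbpht2 stood at 36.8 CPM in control replicate 1 and 124 CPM in control replicate 4, a wide gap between libraries of 1 group. Among the most abundant members, Norad (-0.07), Rian (-0.07) and Meg3 (-0.06) were also called negative. Malat1 was not called (0.06 ± 0.03, edgeR adjusted p = 0.134).

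**Figure D3:**
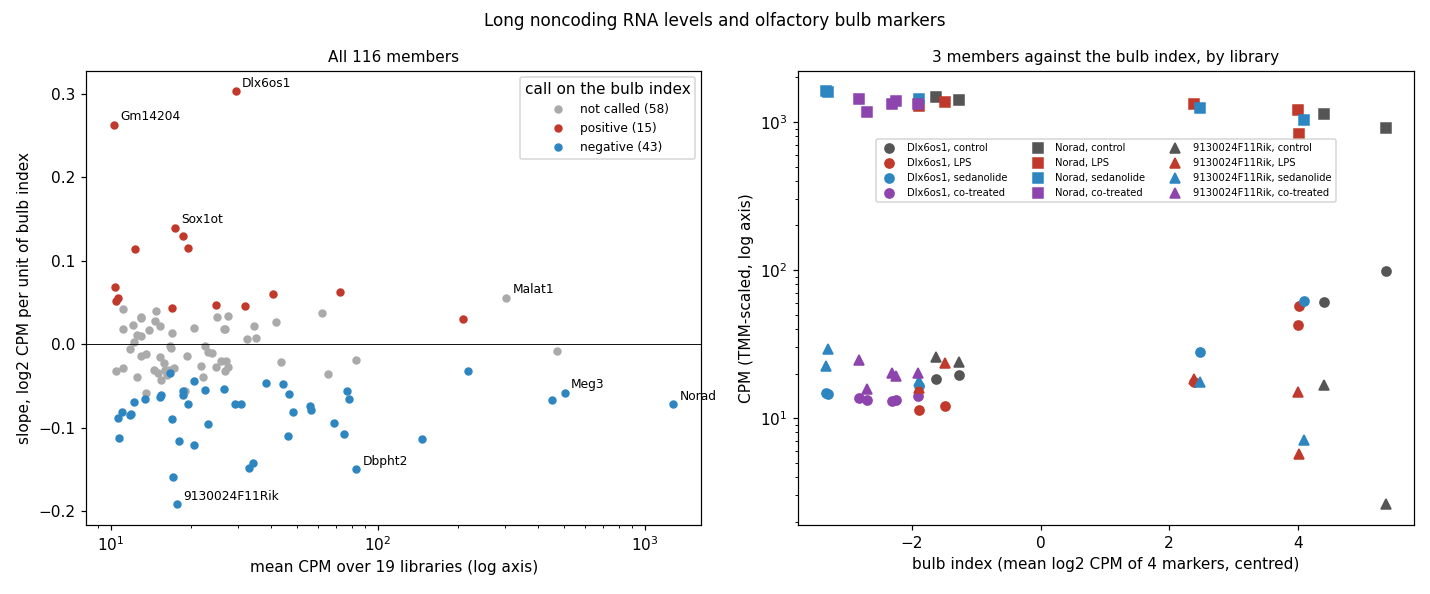
Left, slope of each of the 116 members on the bulb index (log2 CPM per unit of the index) against its mean CPM on a log axis, coloured by call: 15 positive, 43 negative and 58 not called. Right, TMM-scaled CPM on a log axis against the bulb index in each library for Dlx6os1 (circles), Norad (squares) and 9130024F11Rik (triangles), coloured by group. Dlx6os1 is high and 9130024F11Rik low in the libraries with the highest index, and the co-treated libraries all lie at the low end of the index.

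RefSeq (GRCm38.p6) gave promoters, 300 bases around the start, for 66 of the 116 members by symbol (76 promoters). The letters TAATTA, the core recognised by homeodomain proteins, read the same on both strands. They were in 3 member promoters (3.95%), against 5.29% of all 32851 promoters. These belonged to 2 members at opposite ends of the bulb slopes, Dlx6os1 and B230209E15Rik, and a promoter of each is shown for that reason with TAATTA in capitals. The Dlx6os1 promoter is chr6:6869484-6869783 and the B230209E15Rik promoter is chr7:61615278-61615577, both on the - strand.
Dlx6os1: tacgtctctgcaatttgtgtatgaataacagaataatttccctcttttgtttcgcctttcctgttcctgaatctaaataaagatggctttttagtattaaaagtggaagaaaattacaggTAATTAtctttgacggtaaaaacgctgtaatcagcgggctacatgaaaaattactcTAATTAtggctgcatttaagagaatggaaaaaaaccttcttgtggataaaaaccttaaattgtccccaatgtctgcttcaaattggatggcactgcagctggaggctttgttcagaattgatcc
B230209E15Rik: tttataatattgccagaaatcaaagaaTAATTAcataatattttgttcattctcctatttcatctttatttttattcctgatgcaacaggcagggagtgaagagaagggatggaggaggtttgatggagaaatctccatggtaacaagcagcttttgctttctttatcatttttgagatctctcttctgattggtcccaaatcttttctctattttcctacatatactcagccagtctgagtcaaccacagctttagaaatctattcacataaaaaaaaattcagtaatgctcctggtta

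A match of letters is a description only. The cyclic AMP response element TGACGTCA, also its own reverse complement, was in 7.89% of member promoters (6 of 76) and in 1.79% of all promoters. Gas5, Meg3 and Mir9-3hg were among the members that held it.

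Some differences were seen among the bulb-poor libraries. Their bulb index still differed between groups, at -1.27 and -1.62 in control and -2.82 to -1.90 in co-treated libraries. In the 12 bulb-poor libraries alone, LPS was followed by 4 calls among members, all lower (0.71% of all genes), with none higher (4.07% of all genes) and 4.78% of all genes called either way. Co-treatment against control was followed by 5, all lower (0.789% of all genes), with none higher (2.68%) and 3.46% of all genes called either way. No member was called by edgeR for sedanolide against control, co-treated against LPS or the interaction in these libraries, with 0.0451%, 0.197% and 0.113% of all genes called. The set held 2 control, 2 LPS, 3 sedanolide and 5 co-treated libraries, so the LPS calls rest on 2 libraries against 2.

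ENSMUSG00000121179, which overlaps Copg2 on the opposite strand at chr6:30782687-30785779, was called in both. Its bulb-poor libraries stood at 238 and 267 CPM in control, 109 and 174 CPM in LPS, 201, 162 and 194 CPM in sedanolide and 121, 133, 129, 118 and 107 CPM in co-treated mice. Both control values lay above all others. The log2 change was -0.85 ± 0.18 under LPS (SE, edgeR adjusted p = 0.00876) and -1.06 ± 0.14 in co-treated mice (adjusted p = 0.000473). Over all libraries, where the bulb-rich controls stood at 85.6 and 167 CPM, the changes were -0.57 ± 0.29 and -0.64 ± 0.29 and were not called (adjusted p = 0.238 and 0.151). With the bulb index held the co-treated change was -1.02 ± 0.23 (adjusted p = 0.0113), and the LPS change was -0.52 and was not called (edgeR adjusted p = 0.105).

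Dlx6os1 also differed within the bulb-poor set. It stood at 19.6 and 18.3 CPM in control, 11.4 and 12.1 CPM in LPS, 14.6, 14.7 and 16.5 CPM in sedanolide and 13 to 14.1 CPM in co-treated libraries. The log2 change was -0.71 ± 0.12 for LPS (SE, edgeR adjusted p = 0.00239) and -0.50 ± 0.10 for co-treatment (adjusted p = 0.00954). With the bulb index held over all libraries it was -0.63 ± 0.18 for LPS (adjusted p = 0.0241) and -0.27 for co-treatment (adjusted p = 0.487). Rian, the transcript downstream of Meg3, was called lower with the index held, by 0.30 ± 0.08 log2 under LPS (edgeR adjusted p = 0.0136). In that fit 3 members were higher and 14 lower under LPS, against 11.2% and 4.34% of all genes and 15.5% either way.

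Hosts of small nucleolar RNAs were low together in 4 libraries. These genes carry guides of ribosomal RNA modification in their introns, and their spliced remainder is known to be degraded during translation. Gas5, which hosts 10 of them, stood at 45.6, 69.0, 71.8 and 72.1 CPM in control, 59.4, 48.1, 54.5, 55.6 and 75.0 CPM in LPS, 57.1, 64.5, 34.7, 35.1 and 37.9 CPM in sedanolide and 63.9, 65.2, 55.8, 62.5 and 32.5 CPM in co-treated mice. Sedanolide replicates 3, 4 and 5 and co-treated replicate 5 were the lowest 4 of the 19.

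The same 4 libraries were lowest for Zfas1 (11.2 to 13.5 CPM against 17.3 to 25.0 CPM in the other 15), Snhg8 (6.76 to 8.31 against 12.1 to 18.2), Snhg12 (11.5 to 12.6 against 13.6 to 19.1) and 2410006H16Rik, which hosts Snord49a, Snord49b and Snord65 (8.63 to 12.1 against 12.4 to 22.6). These were the 5 members (4.31%) with all 4 libraries below the other 15, a split found in that direction in 1.28% of all genes tested. The libraries were singled out after these values were seen, so this is a description with no test. Snhg14 (23.8 to 26 against 22.3 to 37.2 CPM) and Rian (377 to 506 against 321 to 594 CPM), the hosts in imprinted domains, did not share it.

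In the test by group, 2410006H16Rik was called lower under sedanolide (log2 -0.56 ± 0.16, edgeR adjusted p = 0.0437), and Gas5 (-0.49 ± 0.22, adjusted p = 0.168), Zfas1 (-0.42 ± 0.19, adjusted p = 0.177), Snhg8 (-0.68 ± 0.22, adjusted p = 0.0777) and Snhg12 (-0.32 ± 0.14, adjusted p = 0.176) were not. With the bulb index held, Gas5 (-0.68 ± 0.18, adjusted p = 0.0348), Zfas1 (-0.56 ± 0.17, adjusted p = 0.0487) and Snhg8 (-0.83 ± 0.21, adjusted p = 0.0261) were called lower too, among 2 higher and 12 lower members (4.43% and 3% of all genes, 7.42% either way). Without the 4 libraries the sedanolide group kept 2 libraries, and no member was called in that comparison (0.126% of all genes were). Co-treated against control then had 1 member higher and 5 lower (4.52% and 2.35% of all genes, 6.87% either way), and LPS against control, which keeps its own libraries, 1 higher and 7 lower (8.4% and 3.37% of all genes, 11.8% either way). Co-treated against LPS had none (0.836% of all genes), nor did the interaction (0.082%), by edgeR.

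**Figure D4:**
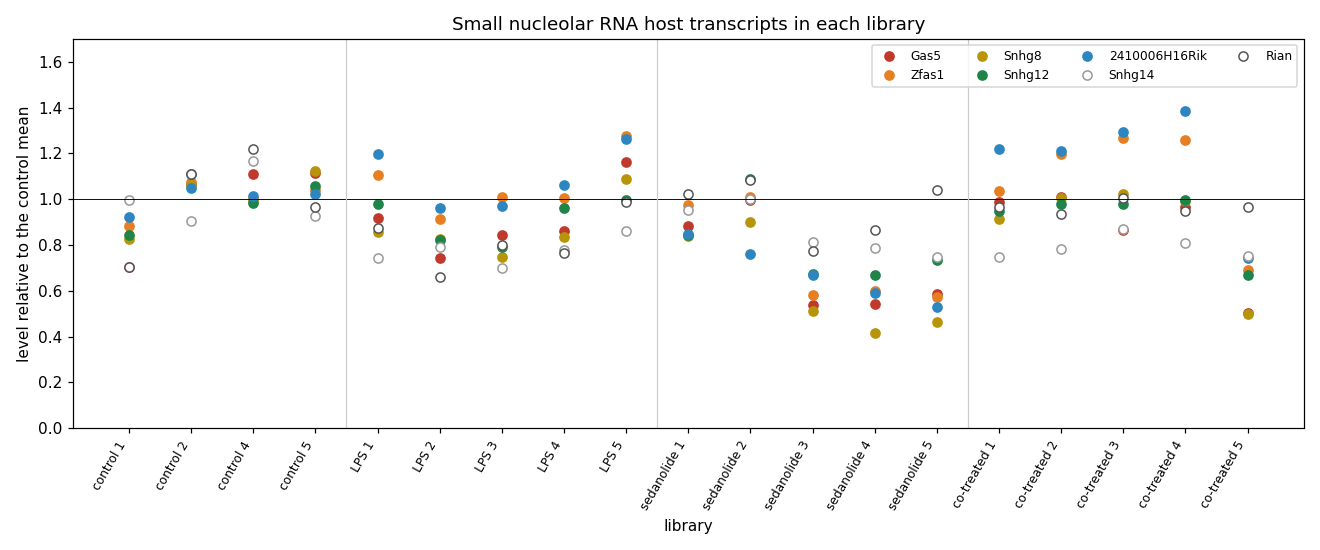
Level of 7 small nucleolar RNA host transcripts in each library relative to the control mean (linear axis from 0), with libraries grouped by treatment. Gas5, Zfas1, Snhg8, Snhg12 and 2410006H16Rik (filled) are lowest in sedanolide 3, 4 and 5 and co-treated 5, and Snhg14 and Rian (open) do not follow them.

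Of 7 members listed as nuclear-retained or structural, a list not confined to nuclear RNAs (Norad is cytoplasmic), 1 (Malat1) fell in co-treated against control mice. Of all genes, 4.69% fell there. None of the 7 was called in the other treatment comparisons of the fit on groups alone. The slope on the bulb index was called positive for 1 and negative for 3 of them (14.7% and 16.3% of all genes). Neat1, the scaffold of paraspeckles, stood at 20.5, 33.5, 27.3 and 22.3 CPM in control, 20.2, 42.3, 26.6, 28.3 and 27.8 CPM in LPS, 16.7, 18.8, 18.4, 14.6 and 18.1 CPM in sedanolide and 17.3, 15.8, 21.5, 25.7 and 11.6 CPM in co-treated mice. Every sedanolide library lay below every control library, a split found in 3.56% of all genes, yet the log2 change of -0.58 ± 0.21 was not called (edgeR adjusted p = 0.0996).

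Proteins of these bodies were listed beside them. Of 11 paraspeckle protein genes, 2 fell under LPS, 2 under sedanolide and 3 in co-treated against control mice, and none rose. Of 6 speckle protein genes, 2 fell under LPS, 4 under sedanolide and 3 in co-treated mice. Of all genes tested, 2.44%, 2.11% and 4.69% were called lower in these comparisons. The slope on the bulb index was called positive for 3 of the 11 and 1 of the 6, and negative for none. The splicing factor Srsf1 fell by 0.35 ± 0.08 log2 under LPS (edgeR adjusted p = 0.00706) and by 0.40 ± 0.08 under sedanolide (adjusted p = 0.0138). Srsf7 was the 1 gene of these lists called in the interaction (0.48 ± 0.10 log2, edgeR adjusted p = 0.0407).

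The 5 glial, immune or stress RNAs listed (Gas5, Cerox1, Neat1, Mir22hg and Pvt1) had none called in the 4 treatment comparisons by edgeR on groups alone. Of all genes, 1.97% to 11.1% were called in these comparisons. With the bulb index held, Gas5 was called lower under sedanolide (log2 -0.68, edgeR adjusted p = 0.0348). Of 5 members in imprinted domains, Snhg14 fell under LPS and in co-treated against control mice, and the other 4 were not called in any treatment comparison of the fit on groups alone. With bulb content held, Rian was called lower under LPS (-0.30 log2, edgeR adjusted p = 0.0136) and in co-treated against control mice (-0.31, adjusted p = 0.0491). Meg3, the maternally expressed RNA of the Dlk1-Dio3 domain, stood at 429, 727, 638 and 468 CPM in control, 611, 497, 475, 331 and 702 CPM in LPS, 399, 447, 459, 444 and 489 CPM in sedanolide and 505, 401, 500, 596 and 424 CPM in co-treated mice. The groups overlapped, and the largest of its changes against control was -0.34 ± 0.18 log2 under sedanolide (edgeR adjusted p = 0.257). None of the 5 coding genes listed for that domain was called in a treatment comparison. In the bulb-poor set Meg3 was called lower in co-treated mice (-0.50 ± 0.13 log2, edgeR adjusted p = 0.0499).

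By position in the deposited table, 30 members (25.9%) overlapped a coding gene on the opposite strand, against 41.4% of the 1825 lncRNA tested. On the same strand 8 members (6.9%, against 4.44%) overlapped a coding gene, and 21 (18.1%, against 19.8%) started within 2000 bp of a divergent coding gene. A further count was of starts within 5000 bp past the end of a coding gene on the same strand, which held for 21 members (18.1%) against 7.56% of the lncRNA tested. ENSMUSG00000121141, with a mean of 218 CPM, starts 287 bp past the end of Cmip. Under sedanolide Cmip rose by 0.54 log2 (edgeR adjusted p = 0.0198), while the log2 change of ENSMUSG00000121141 was 0.01 (adjusted p = 0.972).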

How the data were processed

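Whole-number read counts per gene were deposited by the authors for 57010 genes in 19 libraries of medial prefrontal cortex. Per the labels' protocols, poly(A) RNA was prepared with a stranded kit. Per the submitters' processing notes the tools were fastp, HISAT2, StringTie, RSEM and DESeq2, and the table's own name gives another counter, featureCounts. Versions, strand setting and genome build are not given in the sources used here.

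The counts were fitted with edgeR 4.0.16 in R 4.3.3 (TMM factors, default filter by group, robust quasi-likelihood test, all 19 libraries in 1 model with a mean per group). Tests were two-sided, with Benjamini-Hochberg adjustment across all 17757 tested genes. CPM values are scaled by the TMM factors, except the mean CPM that chose the members, which used column totals. The bulb index is the mean log2 CPM of 4 markers with a prior count of 0.5, centred, and bulb-poor libraries had Cdhr1 under 20 CPM. Alternatives were DESeq2 1.42.0, RLE factors, no filter, the bulb index, subsets of libraries and a replicate block. The RefSeq sequence tables are of build GRCm38.p6, and exon lengths are from GENCODE vM21.

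Members named are the 12 most abundant, up to 8 called in each direction per comparison by p, the 6 steepest bulb slopes of each sign, members of role lists, and those beside the threshold. The members and lists were chosen with earlier results of these data known. The neighbour of a member is named for its position. All columns of counts were matched to samples.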

Additional observations from a re-analysis of the deposited data

Results flagged for a closer look

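In 104 groups of 4 or 5 values (25 members and their summed share, in 4 treatment groups), 12 had a library far from the others, and chance alone flags about 1 in 20 such groups. In control mice, Gas5 was low in replicate 1 (45.6 CPM, the others 69.0 to 72.1), and Ftx was high in replicate 2 (18.8 CPM, the others 15.3 to 15.7). Under LPS, Sox2ot was high in replicate 2 (27.3 CPM, the others 15.3 to 16.6), and the members' share of counts was high in replicate 5 (0.675%, the others 0.601% to 0.619%).

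Sedanolide replicate 3, a bulb-rich library, was high in Dlx6os1 (61.8 CPM, the others 14.6 to 27.8), C130071C03Rik (78.6 CPM, the others 56.3 to 61.2) and Mir124-2hg (43.6 CPM, the others 35.7 to 37.0). These 3 members have positive slopes on the bulb index.

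Co-treated replicate 5 was low in Gas5 (32.5 CPM, the others 55.8 to 65.2), Snhg8 (8.10 CPM, the others 14.8 to 16.6) and 2410006H16Rik (12.1 CPM, the others 19.7 to 22.6), and the members' share of counts was lowest there (0.572%, the others 0.617% to 0.629%). Co-treated replicate 2 was high in Gm35040 (42.6 CPM, the others 33.6 to 35.6).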

How the results depend on the processing

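Calls depended on single libraries. Without 1 library at a time, members called higher and lower ranged from 0 to 3 and 2 to 11 under LPS, 0 to 3 and 0 to 10 under sedanolide, 0 to 0 and 0 to 1 in co-treated against LPS, 0 to 5 and 3 to 19 in co-treated against control, and 0 to 2 and 0 to 0 in the interaction. Genes called ranged from 1308 to 2478, 97 to 1410, 141 to 590, 876 to 2907 and 33 to 242 in the same order, and on the bulb index from 3524 to 6023, with 11 to 19 members positive and 31 to 48 negative. Members lower were moved by over 1.5 times under LPS without control 1 (11), control 4 or LPS 1 (3), and control 5 or LPS 3 (2). Under sedanolide this held without control 1 or sedanolide 5 (2), control 5 (0), sedanolide 1 (4) and sedanolide 4 (1), and in co-treated against control without control 1 or 5 (3) and co-treated 1 or 2 (7), 3 (8) and 5 (5). The interaction calls were 2410006H16Rik and Chaserr without co-treated replicate 5, and ENSMUSG00000120390 without control replicate 1.

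With no filter, members called were 0 higher under LPS, 1 higher under sedanolide (439 genes), and 1 higher and 7 lower in co-treated against control (1244 genes). DESeq2 called 8 members lower under LPS, 14 lower under sedanolide (1860 genes), 3 lower in co-treated against LPS (904 genes) and 1 higher in the interaction (441 genes). With the bulb index as a covariate, 14 members were lower under LPS, 12 lower under sedanolide, 0 lower in co-treated against LPS (98 genes), and 1 higher and 7 lower in co-treated against control (1084 genes), with 251 genes in the interaction. Bulb-poor libraries alone gave 0 higher under LPS (848 genes), 0 and 0 under sedanolide (8 genes), 0 lower in co-treated against LPS (35 genes), 0 higher and 5 lower in co-treated against control (615 genes), 20 genes in the interaction, and 0 positive, 0 negative and 0 genes on the bulb index. Bulb-rich libraries alone, chosen for the group comparisons after seeing the data, gave 0 and 0 under LPS (761 genes), 0 and 0 under sedanolide (0 genes), and 2 positive, 0 negative and 192 genes on the index. Without the 4 libraries low in small nucleolar RNA hosts, also chosen after seeing the data, there was 1 higher under LPS, 0 and 0 under sedanolide (23 genes), 0 lower in co-treated against LPS (153 genes), 1 higher and 5 lower in co-treated against control (1258 genes), and 15 genes in the interaction. These subsets test fewer samples. For the other settings the cause was not tested. RLE factors moved no count by over 1.5 times.

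In bulb-poor libraries the slope on the index changed sign, uncalled, for Meg3 (0.25), Rian (0.0206), ENSMUSG00000121141 (0.0905), Peg13 (-0.008), ENSMUSG00000121179 (0.11), B230334C09Rik (0.12), 4933431E20Rik (0.10), 6330403L08Rik (0.0604), Gm40841 (-0.0195), Gm14204 (-0.0388), A830036E02Rik (-0.0489), Miat (0.20) and Pvt1 (0.0478).

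Replicate numbers did not pair the samples. Over 27 pairs with the same number the mean correlation of deviations was -0.09, 4 pairs exceeded 0.1, and 1 of 19 libraries correlated best with its own number. With the number as a replicate block, members called were 0 higher and 1 lower under LPS, 0 and 0 under sedanolide (95 genes), 0 lower in co-treated against LPS (145 genes), 0 higher and 2 lower in co-treated against control (954 genes), with 32 genes in the interaction.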

Other observations

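The 4 libraries low in small nucleolar RNA host transcripts (sedanolide 3, 4 and 5 and co-treated 5) were also low in ribosomal protein messenger RNA. The 76 ribosomal protein genes tested, listed after the host values were seen, summed to 10212 to 11911 CPM there and to 12438 to 17157 CPM in the other 15 libraries. All 4 libraries lay below the other 15 for 41 of these 76 genes (53.9%), against 1.28% of all genes tested, and above the other 15 for none of them. Gt(ROSA)26Sor, a ubiquitously transcribed locus used for transgenes and named here after its values were seen, stood at 10.3 to 12.2 CPM in the 4 libraries and 12.1 to 19.8 CPM in the others. These are values of libraries chosen on like measures, and no test was made.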
